A study of Canis lupus familiaris with 24 samples.

Results

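The genes described here are 8 transcription factors of kidney development, PAX2, PAX8, LHX1, OSR1, EMX2, GATA3, GATA4 and SOX9, measured by stranded mRNA sequencing in MDCK (Madin-Darby canine kidney) cells. They were chosen by symbol, and all 8 of 8 were among the 32704 genes of the table. A filter on low counts left 12466 genes for testing, 7 of the 8 among them. EMX2 did not pass. OSR1 and GATA4 passed only through their counts in MDCK-II, the line where they were high, so their line differences are given as a description. The sequencing compared 2 sublines, MDCK-II and MDCK-NBL2, over 24 libraries in 8 groups of 3. Both lines were taken before treatment (day 0), after 4 days without treatment, and after 4 days of TGFb, a growth factor that drives epithelial-to-mesenchymal transition. MDCK-NBL2 was also taken after 4 days of TGFb together with an siRNA, either a control (siCTR) or one against PRRX1 (siPRRX1), a homeobox factor of mesenchymal cells. Each subline is 1 established dog line, so a difference between them belongs to these cultures and not to a class of kidney cells. The labels number the replicates without saying whether they were separate cultures, so each p-value speaks only of the spread among the libraries at hand.

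The kidney forms from intermediate mesoderm, which gives rise to the nephric duct, whose ureteric bud branches into the collecting ducts, and to the surrounding mesenchyme, whose cells become nephrons. OSR1 acts early in intermediate mesoderm and nephron progenitors, while PAX2, PAX8 and LHX1 specify and maintain the nephric duct and later act in the forming nephron. EMX2 and GATA3 act in the duct and ureteric bud, SOX9 in the branching bud tips and again in injured tubules, and GATA4 mainly in heart, endoderm and gonad. MDCK cells keep the polarized epithelial form of the distal nephron and collecting duct, and several of these factors persist in mature tubules.

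Library totals lay between 6134929 and 27567296 counts. They ran from 6134929 to 9413761 in MDCK-NBL2 with TGFb alone and from 8021850 to 27567296 in that line untreated at day 4. A separate, higher series of library numbers held only TGFb-treated MDCK-NBL2 libraries: 1 with TGFb alone, 2 with siCTR and 2 with siPRRX1. Depth and number series thus partly followed treatment in that line. The epithelial genes CDH1 (E-cadherin) and EPCAM were high in every group, with group means of CDH1 between 852 and 1360 counts per 1000000 (CPM, on library sizes scaled by TMM, edgeR's trimmed mean of M-values). The defining marker of collecting duct principal cells, AQP2, was at or near 0 in every group (highest mean 0.103 CPM), as was the proximal tubule receptor LRP2 (highest mean 0.28 CPM). A pair of libraries stood apart. The 2nd replicate of untreated MDCK-NBL2 at day 4 lay closer to the TGFb-treated mean than the others did, at a root-mean-square log2 distance of 0.725 against 1.38 and 1.46. The 1st replicate of MDCK-NBL2 at day 0 held counts of genes that the line otherwise lacked, described with OSR1 and GATA4. Results that rest on either library are given with and without it.

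**Figure D1:**
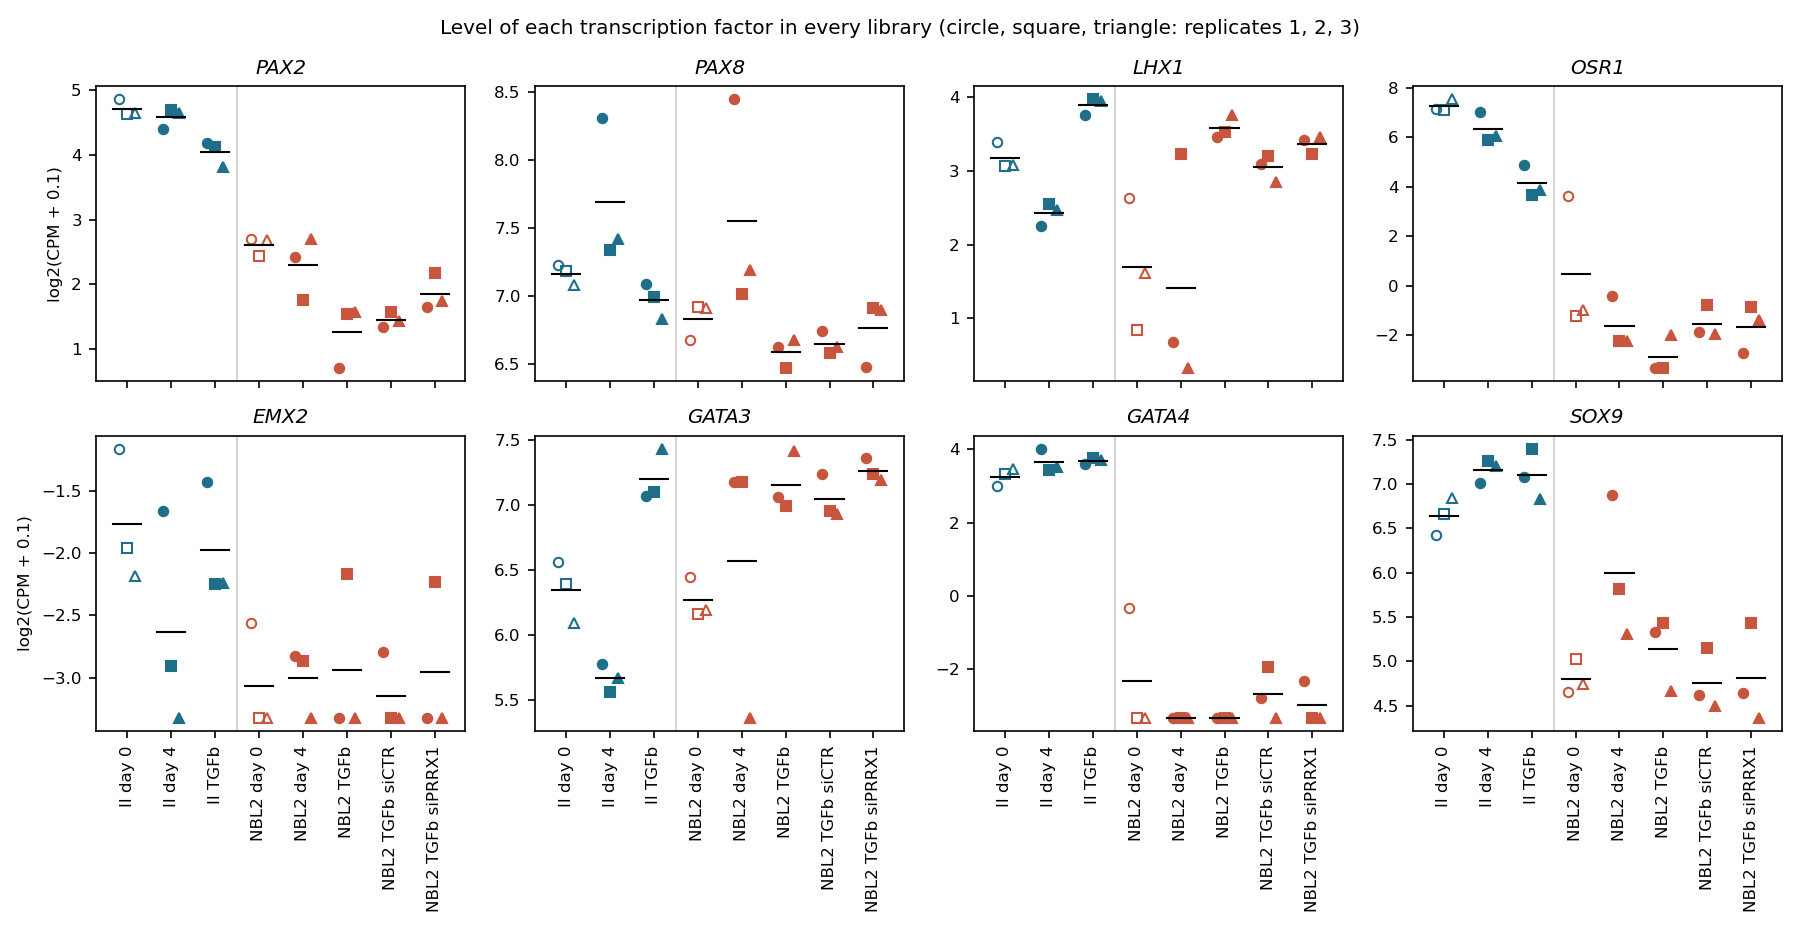
Level of each transcription factor as log2(CPM + 0.1) in all 24 libraries, MDCK-II in blue and MDCK-NBL2 in red, open symbols for day 0, and black bars for the mean of the 3 log values. OSR1 and GATA4 are present in the 9 MDCK-II libraries and low or at 0 in MDCK-NBL2, except for the 1st day 0 replicate, where OSR1 (12.3 CPM) comes close to the lowest MDCK-II library (12.7 CPM, with TGFb), and PAX2 is lower in all 15 MDCK-NBL2 libraries than in any MDCK-II library.

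OSR1, GATA4, PAX2 and SOX9 were lower in MDCK-NBL2 at day 0, at day 4 and with TGFb. PAX8 and LHX1 did not pass the test in any of these comparisons, and GATA3 passed the test only at day 4 without TGFb, where it was higher in MDCK-NBL2. At day 0, 4 of the 7 members tested passed edgeR's quasi-likelihood test with Benjamini-Hochberg adjustment over all genes (adjusted p under 0.05, called edgeR adjusted p below), all 4 lower in MDCK-NBL2. Of all 12466 genes, 28.5% passed in either direction and 13.8% were lower. In untreated cells at day 4, 5 members passed, 4 of them lower, against 36.3% of all genes in either direction and 15.3% lower. With TGFb in both lines, 4 members passed, all lower, against 45.9% of all genes in either direction and 22.3% lower. OSR1 and GATA4 are among those counted each time, so the counts are no support beyond the single genes. The 3 line comparisons use separate libraries of the same 2 lines, and bulk RNA cannot tell fewer expressing cells from less RNA per cell.

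PAX2 (ENSCAFG00000009709), a paired-box factor that the nephric duct requires, measured 28.9, 24.7 and 25 CPM in the 3 MDCK-II libraries at day 0 and 6.37, 5.29 and 6.33 CPM in MDCK-NBL2. In untreated cells at day 4 it measured 21.1, 25.9 and 24.9 CPM in MDCK-II and 5.24, 3.29 and 6.42 CPM in MDCK-NBL2. The lines were far apart and did not overlap on either day. The log2 fold change of MDCK-NBL2 over MDCK-II was -2.14 ± 0.21 (SE; edgeR adjusted p = 3.0e-07) at day 0, -2.30 ± 0.21 (edgeR adjusted p = 9.3e-08) at day 4 and -2.75 ± 0.24 (edgeR adjusted p = 5.3e-08) with TGFb. These calls held in every alternative analysis, including those without each library of the groups compared.

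PAX8 (ENSCAFG00000007309), the close relative of PAX2 that persists in adult tubules, measured 150, 145 and 135 CPM in MDCK-II and 102, 121 and 120 CPM in MDCK-NBL2 at day 0. At day 4 it measured 317, 162 and 171 CPM in MDCK-II and 348, 129 and 146 CPM in MDCK-NBL2. The 1st replicate was the highest in both lines at day 4. The fold changes between the lines were -0.32 ± 0.28 (SE; edgeR adjusted p = 0.43) at day 0, -0.06 ± 0.28 (edgeR adjusted p = 0.89) at day 4 and -0.39 ± 0.28 (edgeR adjusted p = 0.27) with TGFb on the log2 scale. The day 0 values did not overlap even so, with MDCK-NBL2 lower in 3 of 3 libraries. The day 4 difference became -0.66 and passed the test (edgeR adjusted p = 0.021) without the 1st MDCK-NBL2 replicate. With only the groups compared in the model, the day 0 and TGFb differences passed too, at -0.27 (edgeR adjusted p = 0.028) and -0.39 (edgeR adjusted p = 0.0099).

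LHX1 (ENSCAFG00000017853), a LIM-homeobox factor needed for the nephric duct and the early nephron, measured 10.4, 8.25 and 8.40 CPM in MDCK-II at day 0 and 6.10, 1.69 and 2.96 CPM in MDCK-NBL2. At day 4 it measured 4.68, 5.76 and 5.42 CPM in MDCK-II and 1.5, 9.28 and 1.15 CPM in MDCK-NBL2. The high values of MDCK-NBL2 came from the 2 libraries that stood apart, the 1st at day 0 and the 2nd at day 4. The log2 fold change between the lines was -1.35 ± 0.51 (SE; edgeR adjusted p = 0.055) at day 0 and -0.33 ± 0.50 (edgeR adjusted p = 0.64) at day 4. Without the 1st day 0 replicate it was -2.05 ± 0.58 (edgeR adjusted p = 0.013), and without the 2nd day 4 replicate the day 4 value was -1.94 ± 0.37 (edgeR adjusted p = 0.0004). With all libraries, the day 0 difference also passed under DESeq2 (adjusted p = 0.032) and with only the day 0 groups in the model (edgeR adjusted p = 0.035). With TGFb the difference was -0.31 ± 0.49 (edgeR adjusted p = 0.63).

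OSR1 (ENSCAFG00000003775), a zinc-finger factor of early intermediate mesoderm, measured 143, 139 and 185 CPM in MDCK-II at day 0 and 131, 59.9 and 66.1 CPM at day 4. In MDCK-NBL2 it measured 12.3, 0.331 and 0.404 CPM at day 0 and 0.65, 0.111 and 0.115 CPM at day 4, the latter from 20 counts in all. The lowest MDCK-II library lay above the highest MDCK-NBL2 library on each day. The log2 fold change was -5.14 ± 0.80 (SE; edgeR adjusted p = 6.2e-05) at day 0 and -7.99 ± 1.01 (edgeR adjusted p = 4.6e-06) at day 4. With TGFb, OSR1 had 809 counts over the 3 MDCK-II libraries and 1 count over the 3 MDCK-NBL2 libraries, a ratio of 342 with a 95% counting interval from 61.3 to 13500. The interval covers counting error only.

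GATA4 (ENSCAFG00000029087), a GATA factor of heart, endoderm and gonad, was present in MDCK-II and at or near 0 in MDCK-NBL2. MDCK-II libraries held 7.87, 9.94 and 10.9 CPM at day 0, 16.0, 10.7 and 11.3 CPM at day 4, and 12, 13.5 and 13.1 CPM with TGFb. MDCK-NBL2 had 10 counts in the 1st day 0 replicate and none in the others at day 0, none at day 4 and none with TGFb. Against a floor of 3 counts over the 3 MDCK-NBL2 libraries, GATA4 was at least 245-fold higher in MDCK-II at day 4 and at least 87.6-fold higher with TGFb. At day 0 the fitted log2 fold change was -5.45 ± 0.67 (SE; edgeR adjusted p = 1.7e-05). A trace reappeared in the siRNA groups, with 2 counts over each group of 3 libraries, below the floor.

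At day 0 the 1st MDCK-NBL2 replicate carried nearly all the OSR1 and GATA4 counts of its group. OSR1 stood at 7.91% and GATA4 at 7.23% of their MDCK-II mean in that library. The same library held 17 other genes, chosen for a mean of at least 10 CPM in MDCK-II at day 0. Their mean over all MDCK-NBL2 day 4 libraries, treated ones included, was under 0.1 CPM. OSR1 and GATA4 did not meet this rule themselves. In the 1st day 0 replicate the 17 genes stood at 8.83% of their MDCK-II level in the median (quartiles 7.73% and 10.7%). Their median was 0% in the 2nd and 3rd replicates, where OSR1 stood at 0.212% and 0.259%. Without the 1st replicate GATA4 had no count in MDCK-NBL2 at day 0 and was at least 119-fold higher in MDCK-II, from 458 counts. OSR1 then had 7165 counts in MDCK-II and 13 in MDCK-NBL2, a ratio of 430. PRRX1 was also higher in the 1st replicate (7.07 CPM) than in the other 2 (0.661 and 0.404 CPM) or in MDCK-II at day 0 (0.236 to 0.345 CPM). The source of these counts was not tested.

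**Figure D2:**
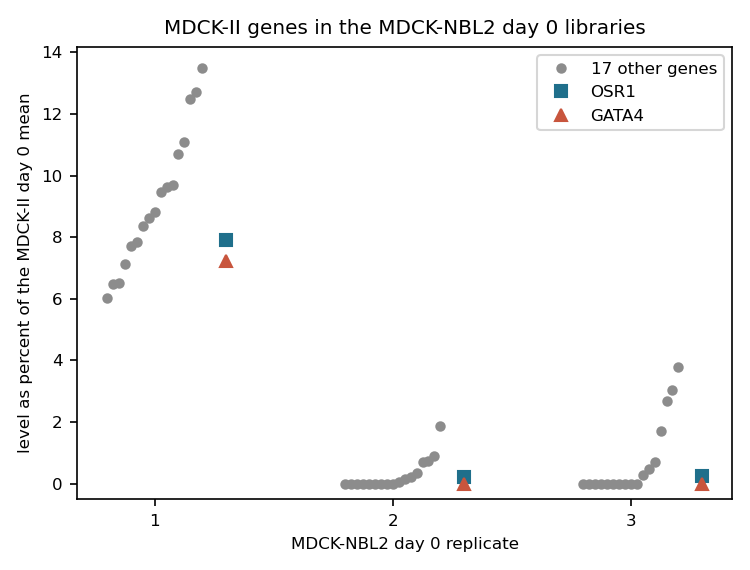
Level of OSR1, GATA4 and 17 other genes in each MDCK-NBL2 day 0 replicate, as a percentage of the MDCK-II day 0 mean. In the 1st replicate OSR1 (7.91%) and GATA4 (7.23%) sit inside the spread of the 17 genes, whose median is 8.83%, and in the other replicates nearly all points are at or near 0%.

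EMX2 (ENSCAFG00000011987), a homeobox factor of the ureteric bud, was barely detected. It had 5, 4 and 1 counts in the MDCK-II day 0 libraries, 0 to 3 counts in each of the other MDCK-II libraries and 0 or 1 in each MDCK-NBL2 library. At day 0 the ratio of MDCK-II (10 counts) to MDCK-NBL2 (1 count) was 10.8, with a 95% counting interval from 1.54 to 468. Fitted without the filter on low counts, the day 0 difference was -2.93 ± 1.12 on the log2 scale (SE; edgeR adjusted p = 0.08). Later differences were not detectable at this depth.

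GATA3 (ENSCAFG00000005019), a GATA factor of the nephric duct and collecting system, differed from GATA4 in being present throughout both lines. It measured 94.4, 84.0 and 68.0 CPM in MDCK-II and 87.1, 71.4 and 72.9 CPM in MDCK-NBL2 at day 0, with overlapping ranges (log2 fold change -0.09 ± 0.28 SE; edgeR adjusted p = 0.85). At day 4 it measured 54.8, 47.1 and 50.9 CPM in MDCK-II and 144, 144 and 41.1 CPM in MDCK-NBL2. The 3rd MDCK-NBL2 replicate lay below all MDCK-II libraries and the other 2 well above them. The fold change of 1.11 ± 0.29 on the log2 scale passed the test (edgeR adjusted p = 0.0048) despite this overlap, and was lost when the model held only these groups (1.12; edgeR adjusted p = 0.18). With TGFb the ranges overlapped, at -0.04 ± 0.28 (edgeR adjusted p = 0.92).

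SOX9 (ENSCAFG00000004374), an SRY-box factor of bud tips and regenerating tubule, measured 85.7, 101 and 115 CPM in MDCK-II at day 0 and 25, 32.4 and 26.7 CPM in MDCK-NBL2. At day 4 it measured 129, 153 and 147 CPM in MDCK-II and 117, 56.3 and 39.6 CPM in MDCK-NBL2. All MDCK-NBL2 values lay below all MDCK-II values on both days, by a narrow margin for the 1st day 4 replicate. The log2 fold change was -1.84 ± 0.33 (SE; edgeR adjusted p = 0.00024) at day 0, -1.0 ± 0.32 (edgeR adjusted p = 0.017) at day 4 and -1.95 ± 0.33 (edgeR adjusted p = 0.00011) with TGFb. The day 4 call was lost in 5 of 13 alternatives, with edgeR adjusted p between 0.051 and 0.17 in those: without the 2nd MDCK-II replicate, without the 2nd or the 3rd MDCK-NBL2 replicate, without both libraries that stood apart, and with only the groups compared.

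Markers of other nephron segments also separated the lines. The proximal tubule list summed to between 25.1 and 51.4 CPM in MDCK-II libraries and between 4.36 and 16.6 CPM in MDCK-NBL2, with CUBN its 1 tested gene of 6. The thick limb and distal tubule list summed to between 19.3 and 47.1 CPM in MDCK-II and between 0.776 and 4.64 CPM in MDCK-NBL2, from CLDN16 and TRPM6 out of 7. The defining transporters SLC34A1, SLC12A1 and SLC12A3 and the marker UMOD were at or near 0 in every group. The podocyte marker NPHS1 had no count in any group, while the list of 4 summed to between 323 and 730 CPM in MDCK-II and between 158 and 244 CPM in MDCK-NBL2. The mean of PODXL was lower and that of SYNPO higher in MDCK-NBL2 at both untreated times. The part of these markers in the members' line differences was not tested.

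With TGFb, LHX1 rose in both lines, GATA3 rose in MDCK-II, OSR1 fell in MDCK-II, and PAX2, PAX8 and SOX9 fell in MDCK-NBL2. In MDCK-II, 3 of 7 members passed the test, 2 higher and 1 lower, against 21.1% of all genes. In MDCK-NBL2, 4 of 7 passed, 1 higher and 3 lower, against 44.3% of all genes, a share not far from that of the members. No member passed the test of a different response between the lines, in which 5.7% of all genes did. Of the 7, 2 had an unadjusted p under 0.05 in that test, and DESeq2 called 0. These comparisons share the untreated day 4 libraries with the line comparison at day 4.

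**Figure D3:**
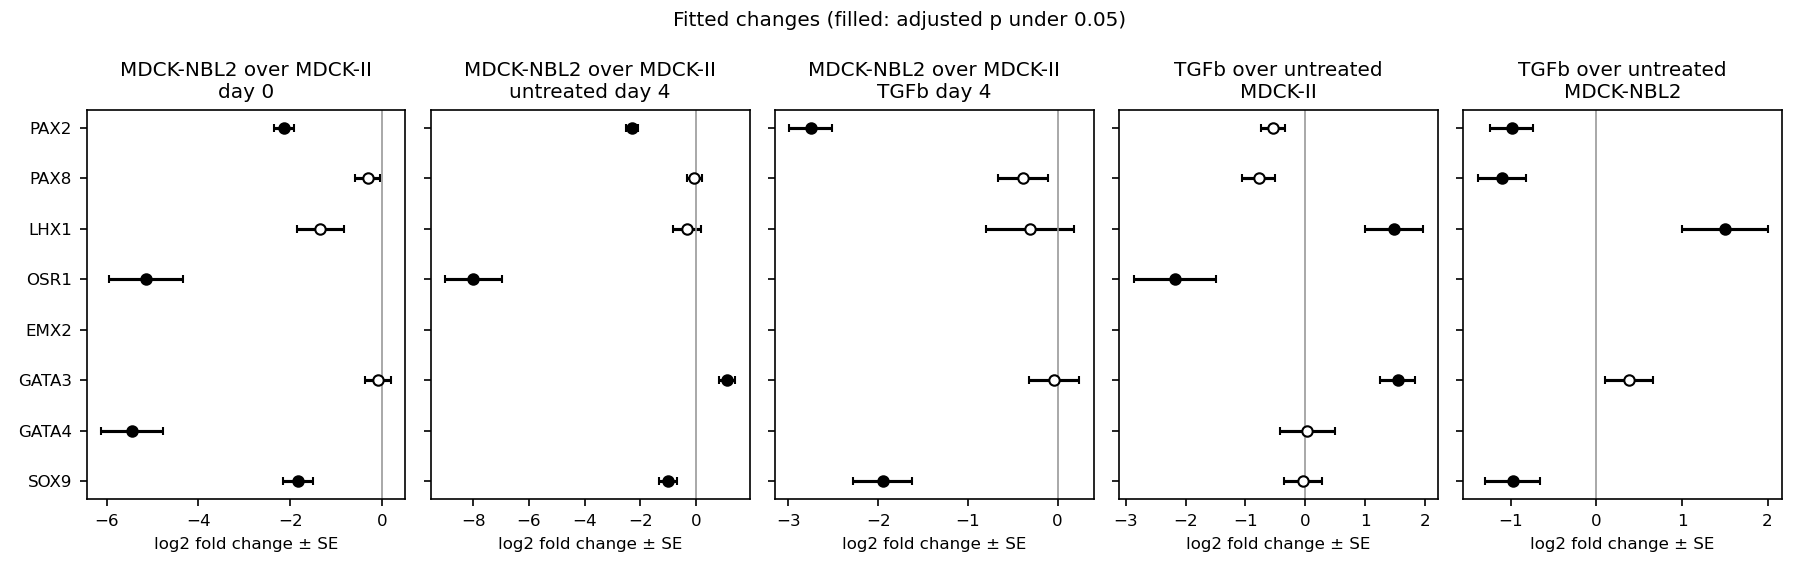
Fitted log2 fold change ± SE of each member in the 3 line comparisons and the 2 TGFb comparisons, filled where the edgeR adjusted p is under 0.05. Members with 3 or fewer counts in a group, and EMX2, have no point, and LHX1 stands at 1.48 in MDCK-II and 1.5 in MDCK-NBL2 in the TGFb panels.

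LHX1 with TGFb measured 13.4, 15.6 and 15.3 CPM in MDCK-II, against 4.68 to 5.76 CPM untreated. In MDCK-NBL2 it measured 10.9, 11.5 and 13.4 CPM, against 1.5, 9.28 and 1.15 CPM untreated. Treated and untreated libraries did not overlap in either line. The log2 fold change was 1.48 ± 0.49 (SE; edgeR adjusted p = 0.04) in MDCK-II and 1.5 ± 0.50 (edgeR adjusted p = 0.021) in MDCK-NBL2. The MDCK-II call was lost with any 1 of its 6 libraries left out (edgeR adjusted p 0.055 to 0.1), with the value between 1.39 and 1.55. Without the 2nd untreated MDCK-NBL2 replicate, the rise was 1.48 ± 0.27 (edgeR adjusted p = 0.0005) in MDCK-II and 3.11 ± 0.38 (edgeR adjusted p = 1.4e-06) in MDCK-NBL2. The response of MDCK-NBL2 then exceeded that of MDCK-II by 1.63 ± 0.46 (edgeR adjusted p = 0.016), where with all libraries the difference was 0.02 ± 0.69 (edgeR adjusted p = 1). In MDCK-NBL2 the call was also lost without the 1st or the 3rd untreated replicate, without the 3rd treated replicate, and with only the groups compared (edgeR adjusted p 0.059 to 0.19).

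GATA3 rose with TGFb to 134, 137 and 172 CPM in MDCK-II, from 47.1 to 54.8 CPM, with a log2 fold change of 1.54 ± 0.29 (SE; edgeR adjusted p = 0.0015). No treated library overlapped an untreated one, and the call held in every alternative. In MDCK-NBL2 it measured 133, 127 and 170 CPM with TGFb, against 144, 144 and 41.1 CPM without (0.38 ± 0.28; edgeR adjusted p = 0.28). The treated libraries of the 2 lines overlapped, and 2 of 3 untreated MDCK-NBL2 libraries lay in the same range. The responses differed by -1.15 ± 0.40 (edgeR adjusted p = 0.093), and by -1.54 (edgeR adjusted p = 0.00028) without the 3rd untreated MDCK-NBL2 replicate.

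OSR1 measured 29.7, 12.7 and 14.6 CPM in TGFb-treated MDCK-II, below every untreated library (59.9 to 131 CPM). The fall, -2.18 ± 0.69 on the log2 scale, passed the test (edgeR adjusted p = 0.031). It was lost under DESeq2 (adjusted p = 0.12) and without the 1st untreated, the 2nd treated or the 3rd treated MDCK-II replicate (edgeR adjusted p 0.09, 0.13 and 0.11). In MDCK-NBL2 OSR1 had 20 counts untreated and 1 with TGFb, a ratio of 6.65 with a 95% counting interval from 1.06 to 276. GATA4 did not pass in MDCK-II (0.03 ± 0.46; edgeR adjusted p = 0.99) and had no count in either MDCK-NBL2 group.

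PAX2 and PAX8 fell with TGFb in MDCK-NBL2, and in MDCK-II their treated values lay below the untreated ones without passing the test. PAX2 measured 1.53, 2.80 and 2.86 CPM in treated MDCK-NBL2, below the 3.29 to 6.42 CPM of untreated libraries (-0.99 ± 0.25 SE; edgeR adjusted p = 0.0036). In MDCK-II it measured 18.1, 17.4 and 13.9 CPM, below the untreated 21.1 to 25.9 CPM (-0.54 ± 0.20; edgeR adjusted p = 0.06). PAX8 measured 98.8, 88.6 and 102 CPM in treated MDCK-NBL2, against 129 to 348 CPM untreated (-1.11 ± 0.28; edgeR adjusted p = 0.004). In MDCK-II it measured 136, 127 and 114 CPM, against 162 to 317 CPM (-0.78 ± 0.28; edgeR adjusted p = 0.052). No treated library of either gene overlapped an untreated one in either line. Both MDCK-II values passed the test without the 2nd untreated MDCK-NBL2 replicate (edgeR adjusted p = 0.016 for PAX2 and 0.021 for PAX8), a library that enters MDCK-II comparisons through the shared estimate of spread. They passed under DESeq2 as well (adjusted p = 0.045 and 0.036). The PAX8 fall in MDCK-NBL2 became -0.51 (edgeR adjusted p = 0.06) without its 1st untreated replicate. The responses of the 2 lines differed by -0.45 ± 0.32 (edgeR adjusted p = 0.43) for PAX2 and -0.33 ± 0.39 (edgeR adjusted p = 0.69) for PAX8.

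SOX9 measured 40.3, 43.0 and 25.3 CPM in treated MDCK-NBL2 against 117, 56.3 and 39.6 CPM untreated, with overlap. The fall of -0.98 ± 0.32 on the log2 scale passed the test (edgeR adjusted p = 0.02). It became -0.41 (edgeR adjusted p = 0.27) without the 1st untreated replicate, and the call was lost without the 3rd treated replicate too (edgeR adjusted p = 0.096). In MDCK-II it measured 135, 168 and 114 CPM with TGFb, on both sides of the untreated values (-0.04 ± 0.31; edgeR adjusted p = 0.96). All 4 calls in MDCK-NBL2 were lost when the model held only the treated and untreated groups of that line. Then 0 of 5 members tested passed, 3 had an unadjusted p under 0.05, and the edgeR adjusted p values ran from 0.095 to 0.19. In that fit 510 of all genes were called.

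The fibroblast marker PDGFRA rose with TGFb in MDCK-II (3.51 ± 0.72 SE on the log2 scale; edgeR adjusted p = 0.0027) and was not called in MDCK-NBL2 (-0.33 ± 0.66; edgeR adjusted p = 0.72). The fibroblast list of 5 summed to between 0.808 and 7.42 CPM in untreated MDCK-II at day 4 and between 13.4 and 48 CPM with TGFb, nearly all of it PDGFRA. In MDCK-NBL2 it summed to between 2.52 and 29.2 CPM untreated and between 9.62 and 23.8 CPM with TGFb, with overlap. DCN and PDGFRB, defining fibroblast genes, were at or near 0 in every group (at most 0.0884 CPM). LUM reached a mean of 2.36 CPM in treated MDCK-NBL2. The intercalated cell list of 5 summed to between 30.1 and 121 CPM in untreated MDCK-NBL2 at day 4 and between 14.4 and 28.9 CPM with TGFb. Nearly all of that sum was ATP6V1B1, a proton pump subunit (means of 76 and 22.4 CPM), while FOXI1, SLC4A1, SLC26A4 and SLC4A9 had means of at most 0.79 CPM in these groups. The principal cell list of 7 summed to between 12.3 and 35.1 CPM untreated and between 6.91 and 10.4 CPM with TGFb in MDCK-NBL2, and to between 9.7 and 26.4 CPM and between 9.04 and 13.9 CPM in MDCK-II. Of its genes, the water channel AQP3 fell in MDCK-NBL2 from a mean of 8.43 to 0.714 CPM (edgeR adjusted p = 0.0026) and the vasopressin receptor AVPR2 from 2.39 to 0.613 CPM (edgeR adjusted p = 0.027). The untreated AQP3 mean came mostly from the 1st replicate (20.4, 2.14 and 2.75 CPM), though no treated library overlapped. AVPR2 overlapped, at 2.68, 0.924 and 3.56 CPM untreated and 0, 0.487 and 1.35 CPM treated. The list did not move together. SCNN1B rose there from a mean of 0.105 to 0.503 CPM, from 8 and 11 counts in all (edgeR adjusted p = 0.042). SCNN1A was not called (edgeR adjusted p = 0.41). In MDCK-II AQP3 had means of 1.24 and 0.342 CPM and AVPR2 of 0.581 and 0.17 CPM, neither called (edgeR adjusted p = 0.15 and 0.12). The 3 matched renal epithelial markers, CDH1, EPCAM and CDH16, summed to between 1630 and 2440 CPM and between 1100 and 1210 CPM in untreated and treated MDCK-NBL2, with CDH16 at 0 in the treated one. The part of these genes in the members' changes was not tested.

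From day 0 to day 4 without TGFb, 0 of 7 members passed in MDCK-II, against 9.81% of all genes. There, 2 of the 7 (PAX8 and GATA3) had an unadjusted p under 0.05, and DESeq2 called 0. With only these groups in the model, 3 passed: LHX1 at -0.73 (edgeR adjusted p = 0.042), GATA3 at -0.65 (edgeR adjusted p = 0.029) and SOX9 at 0.55 (edgeR adjusted p = 0.042). The 9.81% belongs to the fit of all groups, and the share of all genes in this smaller fit is not given here. In MDCK-NBL2, 3 of 7 passed, against 17.7% of all genes. SOX9 rose by 1.34 ± 0.32 (SE; edgeR adjusted p = 0.012) and PAX8 by 0.86 ± 0.28 (edgeR adjusted p = 0.041) on the log2 scale, without overlap. Without the 1st day 4 replicate these values were 0.77 (edgeR adjusted p = 0.085) and 0.26 (edgeR adjusted p = 0.41). The PAX8 call was also lost with any 1 day 0 replicate left out (edgeR adjusted p 0.086 to 0.11). OSR1 fell by 3.71 (edgeR adjusted p = 0.023), a call that was lost without the 1st day 0 replicate, where OSR1 stood at 0.367 CPM at day 0 (13 counts) and 0.292 CPM at day 4 (20 counts), and without the 2nd day 4 replicate (edgeR adjusted p = 0.085). LHX1 did not pass (0.26; edgeR adjusted p = 0.74), but stood at -1.34 (edgeR adjusted p = 0.025) without the 2nd day 4 replicate, and GATA3 passed at 0.89 (edgeR adjusted p = 0.00023) without the 3rd. With only these groups in the model, 0 of 5 members tested passed edgeR's test, 1 with an unadjusted p under 0.05. In that fit edgeR called 0 of 11966 genes.

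The siRNA lowered its target: PRRX1 measured 33.9, 7.35 and 3.88 CPM with siCTR and 1.11, 0.339 and 0 CPM with siPRRX1 (-4.64 ± 1.17 SE on the log2 scale; edgeR adjusted p = 0.043). No member passed the test between these groups, in which 2% of all genes did. None of the 7 had an unadjusted p under 0.05, and DESeq2 called 0. PAX2 measured 2.43, 2.88 and 2.59 CPM with siCTR and 3.03, 4.41 and 3.25 CPM with siPRRX1, without overlap (0.44 ± 0.25; edgeR adjusted p = 0.44). LHX1 measured 8.48, 9.11 and 7.12 CPM with siCTR and 10.6, 9.26 and 10.9 CPM with siPRRX1, also without overlap (0.31 ± 0.50; edgeR adjusted p = 0.85). PAX8 measured 107, 95.5 and 98.7 CPM against 89.2, 120 and 119 CPM, GATA3 151, 124 and 122 CPM against 164, 151 and 146 CPM, and SOX9 24.5, 35.5 and 22.5 CPM against 24.8, 43.2 and 20.5 CPM. These 3 genes overlapped between the groups. OSR1 had 8 counts with siCTR and 7 with siPRRX1.

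For PAX2, OSR1, GATA4 and SOX9, all 3 MDCK-II group means lay above all 5 MDCK-NBL2 group means. PAX2 ran from 26.2 ± 2.35 CPM (SD, n = 3) in MDCK-II at day 0 down to 2.40 ± 0.748 in MDCK-NBL2 with TGFb. The neighbouring groups at its top, MDCK-II at day 0 and at day 4 (24.0 ± 2.54), did not differ beyond their spread, nor did the MDCK-NBL2 groups at day 0 (6 ± 0.613) and day 4 (4.98 ± 1.58). SOX9 ran from 143 ± 12.4 CPM in untreated MDCK-II at day 4 and 139 ± 27.3 CPM in the same line with TGFb to 27.5 ± 6.99 CPM in MDCK-NBL2 with TGFb and siCTR. LHX1 had 14.7 ± 1.21 CPM in MDCK-II and 11.9 ± 1.29 CPM in MDCK-NBL2 with TGFb at the top, and 3.58 ± 2.27 CPM in MDCK-NBL2 at day 0 and 3.98 ± 4.60 CPM at day 4 at the bottom. GATA3 was lowest in untreated MDCK-II at day 4 (50.9 ± 3.84 CPM) and lay between 132 ± 16.3 and 154 ± 9.30 CPM in all 4 TGFb groups, which did not differ beyond their spread.

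LHX1 lay in a stretch of genes that were all lower in MDCK-NBL2. In the gene order of RefSeq's UU_Cfam_GSD_1.0 assembly, used for neighbours only, the 20 tested genes nearest LHX1 (10 on each side) were all lower in MDCK-NBL2 at day 0. All 20 passed the test, with a median log2 fold change of -1.48 against -0.04 over all tested genes. At day 4 all 20 were again called lower, with a median of -1.57, and with TGFb 18 of 20 were, with a median of -1.38. LHX1 itself, at -1.35, fell within this stretch. Counted outward from LHX1, an unbroken run of 23 other tested genes, 10 before it and 13 after it, stood below 0, and all 23 were called lower (median -1.44). The 20 nearest tested genes of each of the other 7 members had day 0 medians between -0.25 and 0.01. This gene order was examined after the values were seen, and the reason for the shared difference was not tested.

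**Figure D4:**
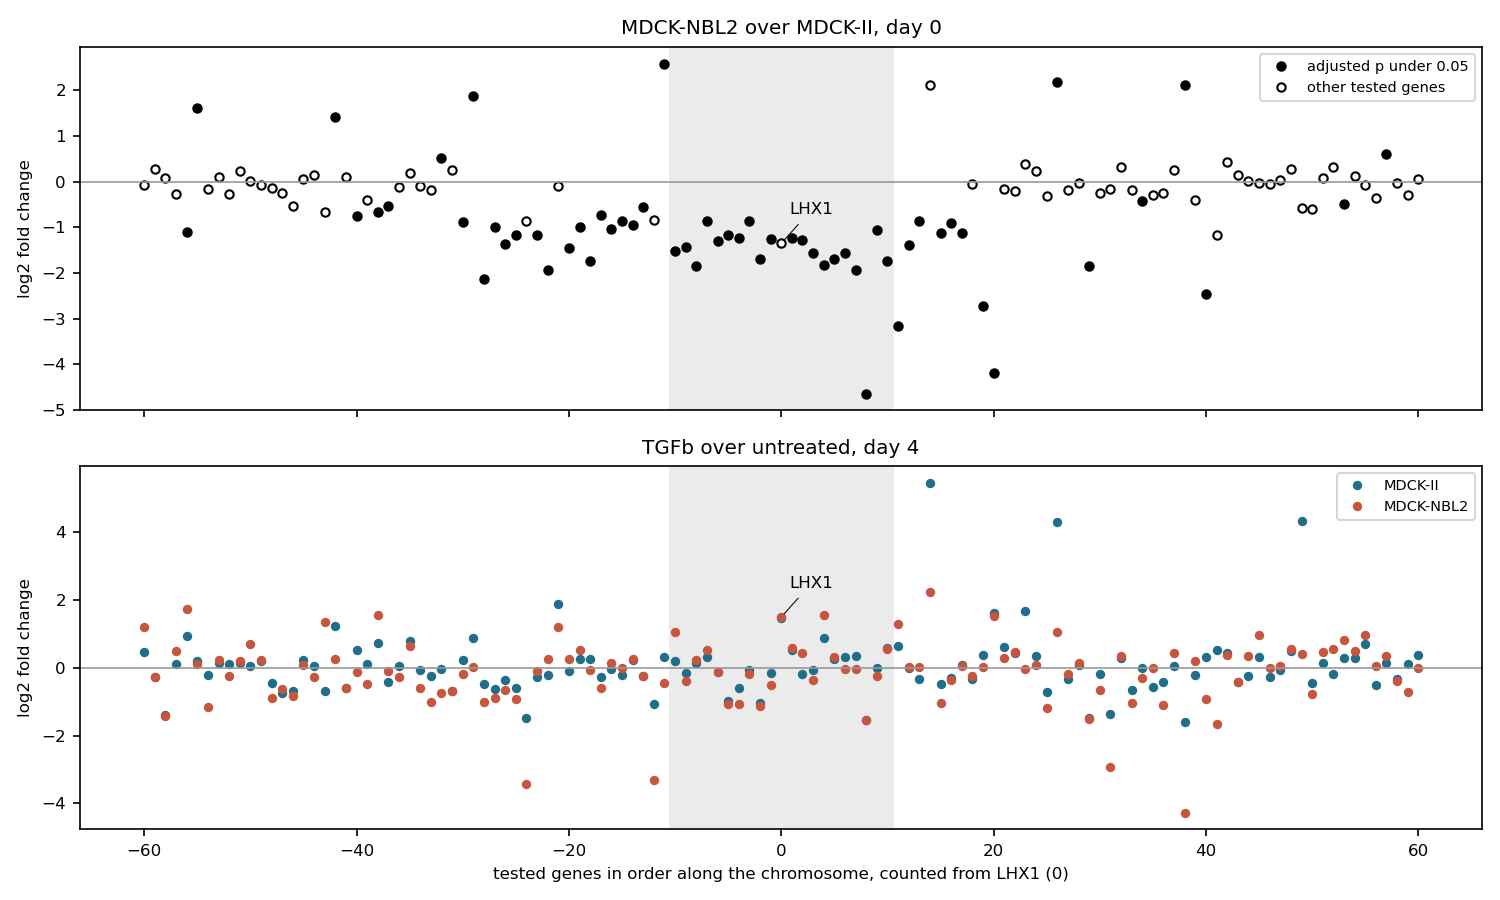
Log2 fold change of the tested genes within 60 positions of LHX1 in chromosome order, for MDCK-NBL2 over MDCK-II at day 0 (top) and for TGFb over untreated in each line (bottom), with the 20 nearest genes shaded. All 20 shaded neighbours lie below 0 in the top panel, with a median of -1.48, while in the bottom panel their medians are -0.02 and -0.07 and LHX1 stands at 1.48 and 1.5.

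The neighbours did not follow LHX1 in its response to TGFb. Their median log2 fold change was -0.02 in MDCK-II, with 2 called higher and 3 lower (21.1% of all genes were called), and -0.07 in MDCK-NBL2, with 6 higher and 4 lower (44.3% of all genes), so the called shares were near the background. The genes whose levels were most like those of PAX2 over the 24 libraries were MTMR4, TRIM37 and TADA2A (Pearson r of log2 CPM 0.98, 0.97 and 0.97). They stood 28 positions before, 26 before and 3 after LHX1 in this order, while PAX2 was not among the 663 tested genes of that chromosome. Within the 9 MDCK-II libraries the same correlations were 0.60, 0.66 and 0.22, and within the 15 MDCK-NBL2 libraries 0.90, 0.89 and 0.88.

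The genes most like the other members were of varied kinds. OSR1 was most like SLITRK4, KSR2 and CAVIN2 (r = 0.99, 0.98 and 0.98), and GATA4 was most like ERBB4, AMER1 and CLIC2 (r = 1.00, 0.99 and 0.99). For OSR1 the correlations were 0.85, 0.91 and 0.86 within MDCK-II and 0.93, 0.87 and 0.84 within MDCK-NBL2. Most OSR1 counts in MDCK-NBL2 came from the 1st day 0 replicate (178 counts). For GATA4 they were 0.61, 0.28 and 0.37 within MDCK-II and 0.91, 0.91 and 0.85 within MDCK-NBL2, where most of its counts came from 1 library. LHX1 was most like PLEKHO1, NCS1 and PHLDB1 (r = 0.93, 0.92 and 0.92), with 0.86, 0.90 and 0.98 within MDCK-II and 0.95, 0.92 and 0.96 within MDCK-NBL2. GATA3 was most like BRAP, MRTFA and IP6K2 (r = 0.91, 0.90 and 0.89), PAX8 most like ZNF445, CHRNB4 and BCAS1 (r = 0.92, 0.91 and 0.90), and SOX9 most like CDK18, COG3 and ZNF608 (r = 0.95 for each). For GATA3 and PAX8 the correlations lay between 0.81 and 0.98 within each line. For SOX9 they were 0.48, 0.63 and -0.30 within MDCK-II and 0.83, 0.95 and 0.91 within MDCK-NBL2. All are descriptions over libraries that share lines and depth.

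Other kidney regulators split in both directions between the lines. Of 40 listed, 34 were in the table and 21 were tested. At day 0, 8 were higher and 5 lower in MDCK-NBL2, against 14.8% and 13.8% of all genes, and the list's median log2 fold change was 0.29 against -0.04 over all genes. IRX2, an Iroquois homeobox factor, measured 0, 0.157 and 0.24 CPM in MDCK-II and 22.0, 31.1 and 32.9 CPM in MDCK-NBL2 (7.75 ± 0.49 SE; edgeR adjusted p = 6.1e-10). IRX2 is among the 8 counted as higher. It passed the filter through its MDCK-NBL2 counts, so its line difference is given as a description. TFCP2L1, a collecting duct factor, was higher by 2.66 ± 0.26 (edgeR adjusted p = 2.9e-07) and SIX4 by 1.81 ± 0.18 (edgeR adjusted p = 3.9e-07). HNF4G, a nuclear receptor, was lower at -2.95 ± 0.24 (edgeR adjusted p = 3.0e-08).

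The ligands and receptors of ureteric bud growth were also mixed. Of 26 genes listed, 16 were tested, and 8 were higher and 5 lower in MDCK-NBL2 at day 0, where 28.5% of all genes were called. FREM1, a basement membrane protein, had no count in any MDCK-II library and 10.4, 10.7 and 13.7 CPM in MDCK-NBL2 at day 0, and its partner FREM2 had 3 counts against 315. Both passed the filter through their MDCK-NBL2 counts, so their line differences are given as a description. The ligands BMP7 (1.36 ± 0.19 SE; edgeR adjusted p = 2.5e-05) and BMP4 (1.0 ± 0.20; edgeR adjusted p = 0.00093) were higher. SLIT2, the secreted ligand of ROBO receptors, measured 51.8, 72.7 and 89.4 CPM in MDCK-II and 5.33, 1.45 and 3.1 CPM in MDCK-NBL2 (-4.48 ± 0.55; edgeR adjusted p = 4.2e-06). At day 4 the counts were 9 higher and 4 lower in MDCK-NBL2, where 36.3% of all genes were called.

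With TGFb, 3 of the 21 kidney regulators rose and 3 fell in MDCK-II, and 1 rose and 6 fell in MDCK-NBL2. The shares of all genes called were 21.1% and 44.3%. The AP-2 factor TFAP2A rose in both (1.3 ± 0.17 SE and 0.78 ± 0.17; edgeR adjusted p = 8.7e-05 and 0.0012). GRHL2, a grainyhead factor of epithelial identity, fell in MDCK-NBL2 from a mean of 86.8 to 22.6 CPM (-1.94 ± 0.31; edgeR adjusted p = 0.00011), and IRX2 fell there by 1.64 (edgeR adjusted p = 0.00048). Of the 16 duct signalling genes, 6 rose and 3 fell in MDCK-II, and 5 rose and 3 fell in MDCK-NBL2, the latter near the 44.3% of all genes. JAG1, a Notch ligand, rose in both (2.37 ± 0.41 and 2.07 ± 0.40; edgeR adjusted p = 0.0008 and 0.00055), as did GDF11. With only the groups of MDCK-NBL2 in the model, TFAP2A (edgeR adjusted p = 0.067) and JAG1 (edgeR adjusted p = 0.054) lost their calls there. ETV4, a target of receptor tyrosine kinase signalling in bud tips, fell in both, from a mean of 48.7 to 17 CPM in MDCK-II (-1.51 ± 0.30; edgeR adjusted p = 0.002) and from 98.4 to 20.3 CPM in MDCK-NBL2 (-2.28 ± 0.31; edgeR adjusted p = 3.8e-05).

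**Figure D5:**
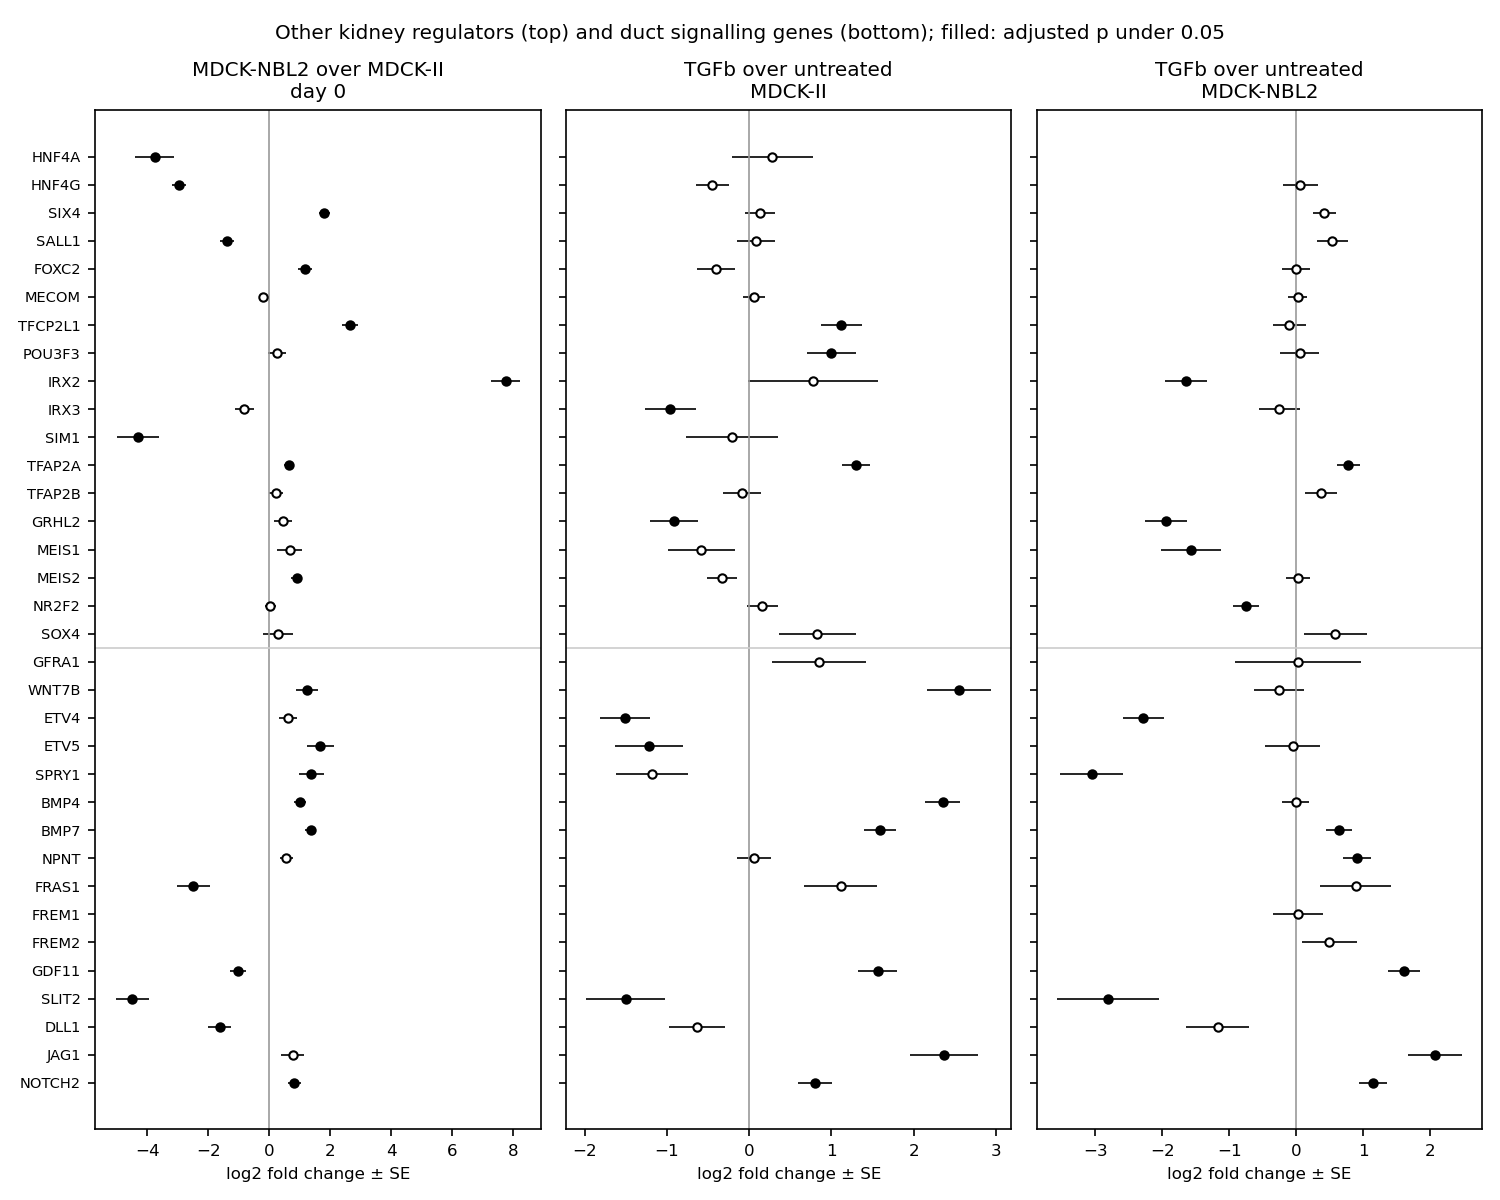
Log2 fold change ± SE of 18 of the 21 other kidney regulators tested (top) and 16 duct signalling genes (bottom) between the lines at day 0 and with TGFb in each line, filled where the edgeR adjusted p is under 0.05. Genes with 3 or fewer counts in a group have no point, and IRX2 (7.75) and SLIT2 (-4.48) mark the ends of the day 0 panel.

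Of the members' family relatives, 22 were listed, 19 were in the table and 4 passed the filter. GATA2, a relative of GATA3 and GATA4, was higher in MDCK-NBL2 at day 0 by 3.44 ± 0.30 (SE; edgeR adjusted p = 6.7e-08), where GATA4 was near 0. SOX10, of the same SOXE subfamily as SOX9, was lower like it (-1.99 ± 0.32; edgeR adjusted p = 7.3e-05). LHX6 rose with TGFb in MDCK-NBL2 (2.36 ± 0.59; edgeR adjusted p = 0.0035), as LHX1 did, and PAX9 fell there (-1.03 ± 0.35; edgeR adjusted p = 0.023), as PAX2 and PAX8 did. LHX6 passed the filter through its counts in TGFb-treated MDCK-NBL2 (mean 2.52 CPM, against 0.404 CPM untreated at day 4). Its rise is therefore given as a description. Of 14 genes known as SOX9 targets or partners in cartilage, matrix genes with SOX5 and SOX6, 13 were in the table and 5 were tested, all matrix genes. With TGFb, 2 of the 5 rose in each line, against 21.1% of all genes called in MDCK-II and 44.3% in MDCK-NBL2. COL11A2, a fibrillar collagen, rose with TGFb in MDCK-II (1.06 ± 0.35; edgeR adjusted p = 0.037) and in MDCK-NBL2 (1.85 ± 0.36; edgeR adjusted p = 0.00058). ACAN, the core protein of aggrecan, rose too, from means of 0 and 0.2 CPM to 0.183 and 1.94 CPM (edgeR adjusted p = 0.049 and 0.0022). Untreated and treated, it had 0 and 8 counts in MDCK-II and 14 and 36 counts in MDCK-NBL2. ACAN passed the filter through its counts in TGFb-treated MDCK-NBL2, so its rise is given as a description. COL2A1, COL9A2 and MATN3 were not called with TGFb in either line. At day 4 without TGFb, where SOX9 was lower in MDCK-NBL2, COL2A1 (means of 0.734 CPM in MDCK-NBL2 and 0.011 CPM in MDCK-II), ACAN (0.2 and 0 CPM) and MATN3 (1.25 and 0.21 CPM) were higher there (edgeR adjusted p = 0.0026, 0.015 and 0.012). These came from 53 and 1 counts of COL2A1, 14 and 0 of ACAN, and 94 and 13 of MATN3. These genes passed the filter through their MDCK-NBL2 counts, so their line differences are given as a description. COL9A2 (-0.44 ± 0.33; edgeR adjusted p = 0.31) and COL11A2 (-0.71 ± 0.36; edgeR adjusted p = 0.13) went the other way at day 4 and were not called. Of all genes, 36.3% were called in that comparison. At day 0 COL11A2 was called lower in MDCK-NBL2 (-1.40 ± 0.39; edgeR adjusted p = 0.01), where COL2A1, COL9A2, ACAN and MATN3 were not called. SOX9 itself was not called higher with TGFb in either line.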

How the data were processed

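Stranded mRNA libraries were given as 1 table of raw gene counts that the authors deposited, with 24 columns and no scaling. The submitters' processing notes name STAR 2.5.3a, RSEM 1.3.0, FastQC and the CanFam3.1 build. For their order, the annotation, the strand setting and any rounding of RSEM estimates, the status is: not given in the sources used here. The labels' TGFb dose has a doubtful unit and is omitted.

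Groups came from the labels. With edgeR 4.0.16 (R 4.3.3), all libraries entered 1 fit of 8 group means (16 residual degrees of freedom) after TMM scaling and filterByExpr (at least 10 counts, total at least 15). The prior count was 0.125. Contrasts were tested by quasi-likelihood F tests, Benjamini-Hochberg adjusted over 12466 genes. An SE is the log2 fold change, without its sign, divided by the root of F. CPM uses the TMM-scaled library sizes of the filtered table. In simulated counts for TGFb in MDCK-II over 12466 genes, 60% of 2-fold and 87% of 4-fold changes were recovered.

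The text names the 8 members, up to 5 list genes of smallest adjusted p in each of the day 0, day 4 and TGFb comparisons, family relatives passing the filter, SOX9 targets called with TGFb, and the 3 genes correlating best with each member (log2 CPM, prior count 2). Some genes that this rule names are not reported here. The members and lists were chosen with earlier results of these data known. Alternatives were DESeq2 1.42.0, DESeq2 size factors in edgeR, no filter, a block for replicate number, a term for the series of library numbers, fits of the compared groups alone, and each library left out in turn. Fitted values are not read for members whose mean over all libraries is under 0.5 CPM in both groups of a comparison, which concerns OSR1 and GATA4 in MDCK-NBL2. This limit was chosen after alternatives had been seen, and counts are given there. The 17 genes set beside OSR1 and GATA4, and the gene order around LHX1, were also chosen after seeing the data. No genome of the files' build was used here, so positions and sequences are not given.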

Additional observations from a re-analysis of the deposited data

Results flagged for a closer look

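The response to TGFb differed between the lines for 4 genes of the kidney lists. Of those lists, 21 regulators and 16 duct signalling genes were tested. The test was edgeR's quasi-likelihood test of the difference itself, with Benjamini-Hochberg adjustment over all genes. It called 5.7% of all genes, and the count fell from 711 to 48 with only the groups compared in the model. Whether these 4 calls hold there is not given here. The value given is the log2 response in MDCK-NBL2 minus that in MDCK-II. BMP4 differed by -2.36 ± 0.29 (SE; edgeR adjusted p = 0.0003), rising from a mean of 33.4 to 170 CPM in MDCK-II, where MDCK-NBL2 stood at 138 CPM untreated. WNT7B, a ligand of the ureteric bud stalk, differed by -2.80 ± 0.53 (edgeR adjusted p = 0.0063), with a rise from 5.74 to 33.8 CPM in MDCK-II and 24.1 CPM in untreated MDCK-NBL2. TFCP2L1 differed by -1.22 ± 0.35 (edgeR adjusted p = 0.047) and BMP7 by -0.95 ± 0.27 (edgeR adjusted p = 0.047). Each was higher in MDCK-NBL2 than in MDCK-II before treatment. From day 0 to untreated day 4, BMP4 fell in MDCK-II from a mean of 93.4 to 33.4 CPM (edgeR adjusted p = 0.00039). WNT7B fell there from 14.2 to 5.74 CPM (edgeR adjusted p = 0.037) and BMP7 from 78.6 to 42.3 CPM (edgeR adjusted p = 0.007). In MDCK-NBL2 these genes were not called over that time. TFCP2L1 did not fall in MDCK-II, with means of 9.98 and 13.2 CPM. The part of these falls in the differing responses was not tested.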

How the results depend on the processing

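Of the 23 called member results, 12 kept the call in every alternative run and 9 lost it with 1 library left out. Among the 12 are PAX2, OSR1 and GATA4 in all 3 line comparisons. The rest are SOX9 between the lines at day 0 and with TGFb, and GATA3 with TGFb in MDCK-II. The line differences of OSR1 and GATA4 are a description, since both genes passed the filter through their MDCK-II counts. Their kept calls are thus no added support. With only the groups compared, the number of members called was 3 between the lines at day 4, 0 with TGFb in MDCK-NBL2 (of 5 tested, 3 with an unadjusted p under 0.05), 3 for time in MDCK-II and 0 for time in MDCK-NBL2. With libraries left out, it ran from 1 to 5 for TGFb in MDCK-II, from 1 to 4 for TGFb in MDCK-NBL2, from 0 to 1 for the difference between those responses, from 0 to 1 for time in MDCK-II and from 1 to 5 for time in MDCK-NBL2. Calls over all genes moved as well, as given below, so these member counts are not set against the shares of the main fit. Leaving out both libraries that stood apart was chosen after seeing the data. Fewer samples enter these fits. The cause of the other shifts was not tested.

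The results whose sign turned were not called with all libraries, except OSR1 over time in MDCK-NBL2. LHX1 over time turned and passed the test without the 2nd day 4 replicate. The difference of LHX1 responses was -0.01 without the filter, and the TGFb line difference of GATA3 was 0.02 with a term for library numbers. With libraries left out, the line difference ran from -0.21 to 0.02 for GATA3 at day 0, from -0.66 to 0.32 for PAX8 and from -1.94 to 0.09 for LHX1 at day 4, and from -0.19 to 0.08 for GATA3 with TGFb. The TGFb change ran from -0.09 to 0.23 for GATA4 and from -0.20 to 0.09 for SOX9 in MDCK-II, and from -0.01 to 0.62 for GATA3 in MDCK-NBL2. The difference of responses ran from -0.71 to 0.27 for PAX8 and from -0.40 to 1.63 for LHX1. The change over time in MDCK-NBL2 ran from -0.49 to 0.01 for PAX2, from -1.34 to 0.96 for LHX1 and from -5.19 to 0.49 for OSR1. OSR1 was under 0.5 CPM in both groups without the 1st day 0 replicate, so the upper end of its range is not read as a change. The siPRRX1 change of SOX9 ran from -0.27 to 0.32.

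Over all genes, calls moved by more than 1.5 times for 7 comparisons. With only the groups compared, the count went from 4527 to 1267 between the lines at day 4, from 5525 to 510 with TGFb in MDCK-NBL2, from 711 to 48 for the difference of responses, from 249 to 1159 for siPRRX1 and from 2206 to 0 for time in MDCK-NBL2 (edgeR; 1614 genes had an unadjusted p under 0.05 and DESeq2 called 306). Without the 2nd untreated MDCK-NBL2 replicate at day 4, it was 2653 for the difference of responses, 655 for siPRRX1 and 2075 (from 1223) for time in MDCK-II. Without the 3rd it was 5324 for time in MDCK-NBL2. The lowest counts with 1 library left out were 1257 (from 2626) for TGFb in MDCK-II without the 2nd treated replicate, 311 for the difference of responses without the 1st treated MDCK-NBL2 replicate, 54 for siPRRX1 without its 3rd siPRRX1 replicate, 509 for time in MDCK-II without the 1st day 0 replicate and 729 for time in MDCK-NBL2 without the 2nd. DESeq2 called 1188 for the difference of responses and 472 for siPRRX1, where edgeR without the filter called 163. With the replicate number as a block, the number of members called was the same in every comparison, for example 4 between the lines at day 0. The labels state no shared origin for the numbers. Over 84 same-numbered pairs the correlation of deviations ran from -0.30 to 0.42 (median 0.05, against -0.02 for different numbers). Of 24 libraries, 18 correlated best with their own number, more than an even spread over the 3 numbers would give. The main fit has no term for the number, and whether same-numbered libraries share a batch was not tested.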
